A study of Mus musculus with 6 samples.

Results

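Goosecoid (Gsc) encodes a homeodomain transcription factor, and its values on 6 microarrays of sorted mouse limb cells are described here together with those of every other transcript probed close to it. The array carried 1 Gsc probe, and 3 further probes lay in a window of 220 kb around it on chromosome 12 of the mm9 build. These 4 probes of 55681 were chosen by gene name and position, and the gene itself was picked because earlier results of these data showed it among the largest differences between the groups. Its difference is therefore given as a description, without a test. The samples were mesenchymal cells of the forelimb autopod, the hand plate in which the digits form, from C57BL/6 mouse embryos at stage E11.5, midway through gestation. All embryos carried EGFP, a green fluorescent protein, knocked into the Sox9 gene, so both groups have the knock-in allele and differ in whether the sorted cells were Sox9-EGFP positive or Sox9-EGFP negative. There were 3 samples of each group, each pooled from about 10 autopods, and every sample had a 1-colour Agilent array of its own. The sources used here give no litters, sorting sessions or sort gates, so p-values measure the spread between these samples, which may be technical. A sorted sample is a mixture, in which fewer cells of a type and less RNA per cell cannot be told apart.

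Gsc belongs to the paired-type homeobox family and mainly represses transcription, recruiting Groucho corepressors through a short peptide near its amino end. It was first known from the gastrula organizer, where Nodal and activin signals switch it on, and later as a gene of craniofacial and limb mesenchyme that depends on endothelin signalling in the lower jaw. Mice without Gsc form a gastrula but have defects of the jaw, ear, nose and ribs. Sox9, which defined the sort, is the master transcription factor of cartilage.

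The sequences that identify the signals are given first. The Gsc probe (A_51_P370717, transcript NM_010351) is a 60-base oligonucleotide from the minus strand of mm9 chromosome 12, 105709426 to 105709485. Of it, 30 bases are printed for mm9 chr12:105709432-105709461, with the word AATAAA in capitals. This hexamer is the common polyadenylation signal near the 3′ ends of messenger RNAs, and its use as a signal here was not tested. Whether the probe lies in an exon or a UTR was not analysed here.
Gsc probe, 30 of its 60 bases: cggtgacaatacAATAAAgtgatggcaatg

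The second bright probe of the window (A_52_P787490) lies 5464 bases from the Gsc probe, on the plus strand at mm9 chr12:105714950-105715009. The array names it ENSMUST00000070814 and describes it as the predicted gene Gm10000. RefSeq lists Gm10000 as a long non-coding RNA next to Gsc. Its sequence is printed because it holds 3 copies of the 8-base word TTTAGGTA, in capitals. Among the 55681 probes 36 had at least 1 copy of this word and only 1, this one, had 3 or more.
Gm10000 probe: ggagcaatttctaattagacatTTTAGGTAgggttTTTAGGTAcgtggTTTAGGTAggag

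Gsc and Gm10000 are read in opposite directions away from each other, and RefSeq places 293 bases between their starts (GRCm38.p6, chr12:104473237-104473529). This strip is printed because it is the shared upstream sequence of the 2 transcripts that differed, read on the minus strand toward Gsc, with TATAAA, the core of the TATA box, in capitals.
Between the starts, read toward Gsc: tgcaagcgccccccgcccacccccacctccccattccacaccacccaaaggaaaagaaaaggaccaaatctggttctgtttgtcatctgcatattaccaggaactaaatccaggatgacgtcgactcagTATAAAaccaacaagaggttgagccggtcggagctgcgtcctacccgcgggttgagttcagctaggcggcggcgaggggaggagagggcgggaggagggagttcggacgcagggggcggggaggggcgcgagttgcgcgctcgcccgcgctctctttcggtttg

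TATAAA begins 164 bases before the Gsc start and its last base lies 135 bases from the Gm10000 start, and 12.4% of the 32851 RefSeq promoter windows, taken as 250 bases before each start, hold it on either strand. The search covered both strands for 4 further words. The word ACAAT, the core bound by SOX factors, was not in the strip and is in 27.7% of windows. TAATCC, the site of Goosecoid-type homeodomains, was not in it and is in 6.25%, and CAGAC, the SMAD box of Nodal and activin signalling, is in 42.2% and was likewise not found. CCAAT was also not found, against 33.8% of windows. The strip held 24 CpG dinucleotides and 61.1% G and C. These were uneven, with 20 CpG in the 147 bases next to the Gsc start and 4 in the 146 bases next to the Gm10000 start. The window before the Gsc start had 22 CpG and that before the Gm10000 start 16, against a median of 6 over all windows. RefSeq windows existed for 3 of the 4 transcripts.

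Positive replicate 1 was the dimmest array, with a 75th percentile of the signal of 126 against 385 to 478 elsewhere, and 24743 spots were well above background there against 29800 to 35277. Sox9 itself was higher in the positive cells on all 3 slides, by 4.37 ± 0.20 in log2 units (SE, n = 3 per group; adjusted p = 0.000513, limma). Positive replicate 1 also stood apart in genes of limb type, which were looked up after the Pitx1 values had been seen. Pitx1, which specifies the hindlimb, gave 3.88 on positive replicate 1 as the log2 of its signal over the array's 75th percentile, against −5.01 and −3.77 on the other positive arrays and −1.17 to −0.49 on the negative ones. Hoxc11, a Hox gene of the hindlimb, gave 0.97 there and −6.77 to −4.67 on the other 5, where it was not well above background. Hoxc9, Hoxc10 and Tbx4, all known for higher expression in hindlimb than in forelimb, were also highest on this array, at −1.02, −0.59 and 2.89 against next highest values of −5.44, −2.11 and 1.32. Isl1, an early hindlimb gene, did not clear the background on any of the 6. Tbx5, the T-box gene of the forelimb, was between 3.77 and 5.13 on all 6. These values go against a purely forelimb label for positive replicate 1. Its cell content was not tested. Values of Gsc and Gm10000 and the counts of each list are given with and without it, and other genes are named where leaving it out changed their call.

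Gsc was bright on every positive array and not well above background on any negative one. In processed intensity, the scanner's background-subtracted signal, the Gsc probe gave 401, 561 and 593 on positive replicates 1, 2 and 3. On the negative replicates it gave 4.91, 6.50 and 3.97, so that the lowest positive array lay far above the highest negative one. As log2 units above each array's 75th percentile, Gsc was at 1.68, 0.47 and 0.50 on the positive arrays and at −6.51, −5.89 and −6.91 on the negative arrays.

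Positive replicate 1 had the lowest raw Gsc signal and the highest scaled value, the 75th percentile it was divided by being the lowest of the 6. The group means were 0.88 ± 0.69 and −6.44 ± 0.52 (SD, n = 3 each), a difference of 7.32 ± 0.41 (SE). Because the negative level is only a bound, the fold is stated as at least 44.8-fold higher in the positive cells. For such bounds each dim array counts at the higher of its own value and the lowest level of any spot well above background on it. That level is not a detection limit of the probe itself, and all such bounds hold only for the scanner's background subtraction. Without positive replicate 1 the difference was 6.92 ± 0.31 and the bound 34.0-fold, and leaving out any other array gave a bound between 44.2-fold and 51.8-fold. Each slide held 1 array of each group, and within the slides the Gsc difference was 7.56, 7.38 and 7.01, with bounds of 79.6-fold, 34.6-fold and 32.7-fold.

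**Figure D1:**
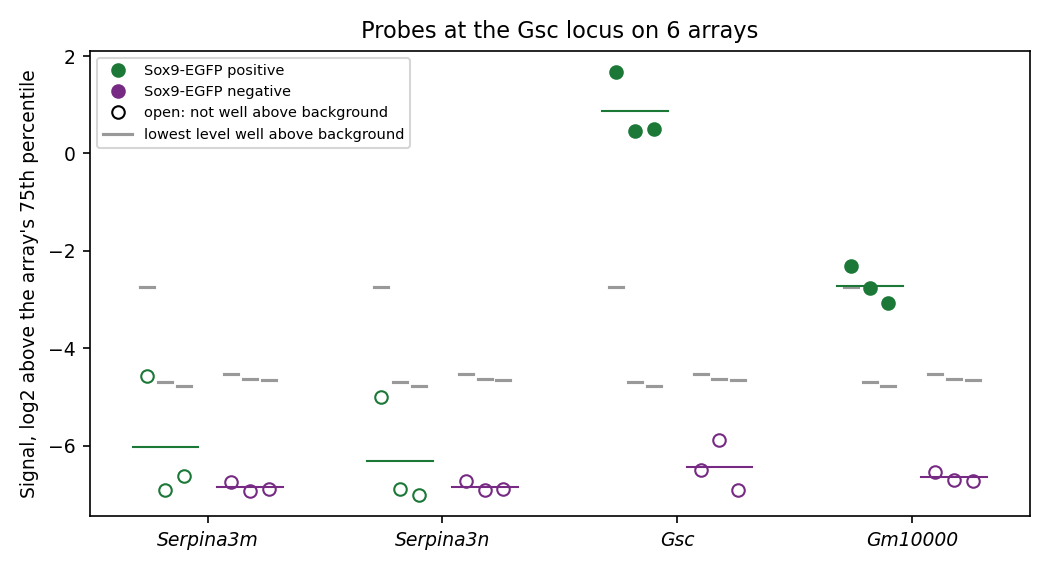
Signal of the 4 probes in the window on each array, in log2 units above the array's 75th percentile, with positive arrays in green, negative arrays in purple, open circles for signals not well above background, long bars for group means and grey bars for the lowest level well above background on each array. Gsc and Gm10000 were above background on the 3 positive arrays and on no negative array, and Serpina3m and Serpina3n on none.

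Gm10000 showed the same on and off pattern at a dimmer probe. Its processed intensity was 25.3, 59.4 and 50.1 on the positive arrays and 4.79, 3.70 and 4.54 on the negative ones. In scaled log2 units it gave −2.31, −2.77 and −3.07 against −6.55, −6.70 and −6.72. All 3 positive arrays were well above background, no negative array was, and the groups did not overlap. The means were −2.72 ± 0.38 and −6.66 ± 0.09 (SD, n = 3 each), a difference of 3.94 ± 0.21 (SE). With the scanner's background subtraction Gm10000 was at least 3.71-fold higher in the positive cells. Without positive replicate 1 the difference was 3.74 ± 0.15 and the bound 3.22-fold, and the slides gave differences of 4.39, 3.95 and 3.48. Over the 6 arrays the scaled values of Gsc and Gm10000 had a Pearson correlation of 0.995, a figure set by the 2 groups and given as a description.

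Few probes on the array had this pattern. Of the 26473 probes kept because every array of at least 1 group showed them well above background, 78 (0.295%) were above it on every positive and no negative array, and both kept probes of the window were among them. The reverse pattern was seen for 186 probes (0.703%). Non-overlapping groups with the positive arrays higher were more common, at 15% of kept probes, and non-overlap in either direction covered 43.2%. A log2 difference above 7 was reached by 3 probes (0.0113%), Gsc being one, and a difference above 3 by 123 (0.465%), which include Gm10000. Since Gsc was chosen on this contrast, and both probes were kept only through the positive arrays, nothing is read from their place in these counts.

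The difference in log2 units depends strongly on how the background is treated. With a normal-exponential background model on the mean signal and quantile normalization the Gsc difference was 3.49 ± 0.30 and that of Gm10000 0.82 ± 0.11 (SE). In the authors' deposited log2 values Gsc was 10.25, 9.16 and 9.21 on the positive arrays and 6.16, 6.11 and 6.17 on the negative ones. There Gm10000 was 6.86, 6.90 and 6.62 against 5.95, 5.99 and 5.97, so the groups were apart for both transcripts on that scale too. The unsubtracted mean signal of the Gsc probe was 470 to 682 on the positive arrays and 46.6 to 50.02 on the negative arrays, which is 15.2 to 27.3 times and 1.66 to 1.85 times the local background. For Gm10000 these ratios were 2.25 to 3.82 and 1.43 to 1.51. The direction was the same for both transcripts under the 5 scalings tried. The at-least folds were taken with the scanner's background subtraction. The smaller differences with the normal-exponential model and in the authors' values fall below them.

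**Figure D2:**
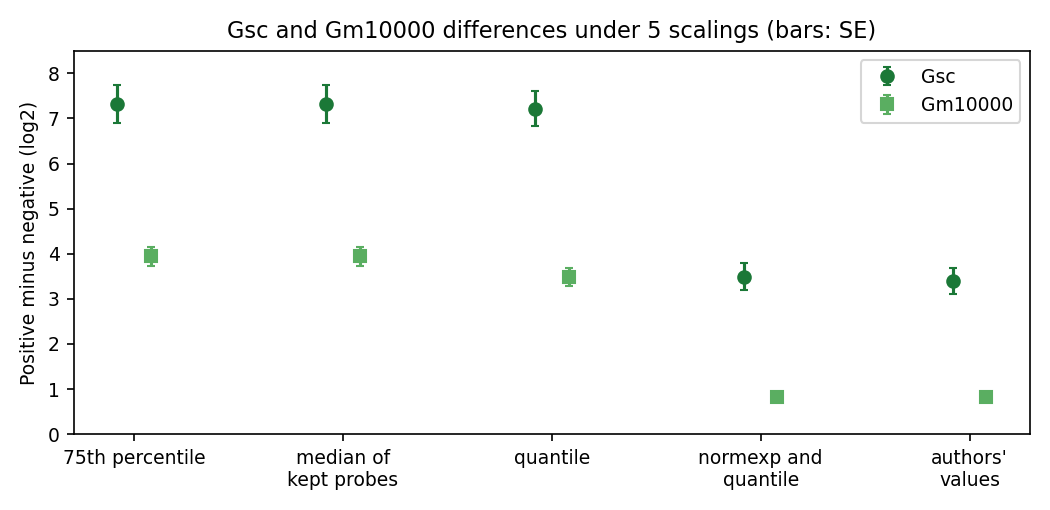
Difference between positive and negative arrays in log2 units for Gsc (circles) and Gm10000 (squares) under 5 scalings of the same spots, with standard errors as bars (n = 3 per group). Gsc lies near 7.3 with the scanner's background subtraction and near 3.4 in the authors' values, and Gm10000 falls from 3.94 to 0.82.

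The other 2 probes of the window, for the secreted protease inhibitors Serpina3m and Serpina3n, did not clear the background anywhere. Serpina3m (mm9 chromosome 12, 105632110 to 105632169) gave processed intensities of 5.28, 3.35 and 4.26 on the positive arrays and 4.14, 3.16 and 4.01 on the negative arrays. Serpina3n (105651918 to 105651977), whose probe lies 57.4 kb from that of Gsc, gave 3.89, 3.41 and 3.24 against 4.24, 3.19 and 4.0. The groups overlapped for both in these units, and no fold is given. The nearest probe outside the window on that side, for Serpina3k, was well above background on 1 of 6 arrays, positive replicate 3. Dicer1, which encodes the ribonuclease that makes microRNAs and has the nearest probe past the other edge, was expressed on all 6.

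Position gave a set of genes not chosen on their values. Within 1 Mb on either side of the window there were 76 probes, of which 19 were kept and 40 were above background on no array. Of the 19, 1 was higher and 2 were lower in the positive cells at an adjusted p of 0.05 in limma, against 7.96% higher and 13.7% lower over all kept probes. The median flank difference was −0.10, the same as over all kept probes.

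The higher one was Clmn, which encodes calmin, a membrane-anchored actin-binding protein, and lies 292.1 kb from the Gsc probe. Clmn was at 2.41, 2.52 and 2.32 on the positive arrays and at 0.15, −0.09 and 0.55 on the negative arrays. It rose by 2.21 ± 0.19 (SE; adjusted p = 0.00176, limma), 4.62-fold, and by 2.21 without positive replicate 1 (adjusted p = 0.00409). Dicer1, between Gsc and Clmn at 216.6 kb from the Gsc probe, differed by 0.09 ± 0.15 with overlapping groups (adjusted p = 0.707).

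Past Clmn, Glrx5, a mitochondrial iron-sulfur cluster protein, was lower by a log2 difference of −0.76 ± 0.14 (adjusted p = 0.0146). At the far end of the other flank Ddx24, an RNA helicase, was lower by −0.73 ± 0.12 (adjusted p = 0.0123). Without positive replicate 1 these were −0.77 and −0.71 (adjusted p of 0.0227 and 0.0199). Leaving out negative replicate 1 ended both calls (adjusted p = 0.07 for Glrx5 and 0.06 for Ddx24), as did leaving out negative replicate 3 (0.0651 and 0.0572), and that of Glrx5 also without positive replicate 3 (0.0598). After quantile normalization Glrx5 had an adjusted p of 0.0926 and Ddx24 of 0.136. The Serpina cluster supplied 30 of the flank probes, of which 5 were kept and none was called in limma, nor at an unadjusted p of 0.05 (0 of 5). Serpina3b gave 0.63 ± 0.47 (adjusted p = 0.387, or 0.0342 in the slide-blocked fit). Serpina1e gave 0.44 ± 0.35 (adjusted p = 0.413) and Serpina11, with 2 probes, −0.33 and 0.22.

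**Figure D3:**
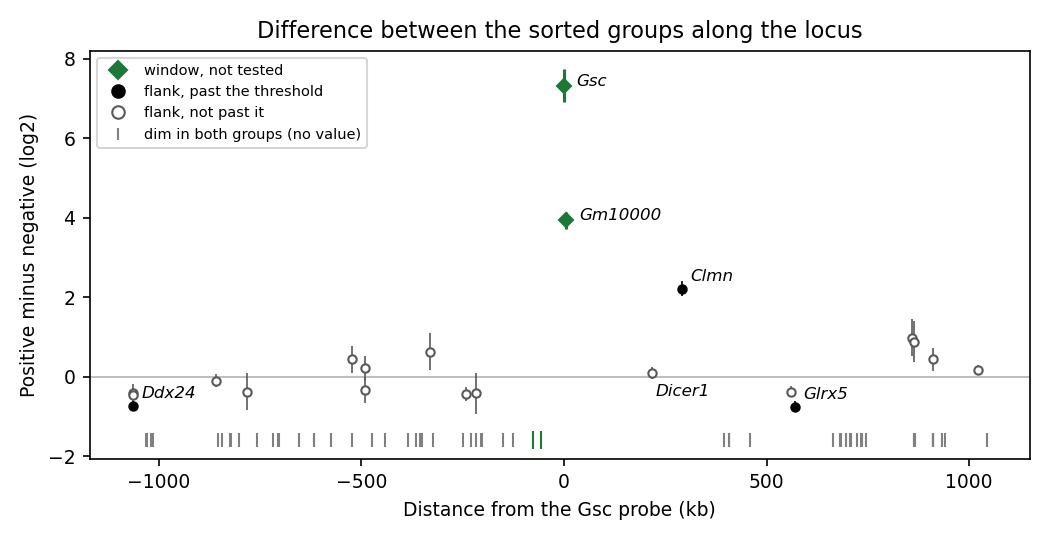
Difference between positive and negative arrays in log2 units for every kept probe by distance from the Gsc probe in kb, with standard errors as bars, green diamonds for the window, filled circles for flank probes past the threshold, open circles for the others, and ticks for probes dim in both groups. Gsc at 7.32 and Gm10000 at 3.94 stand beside a row of dim Serpina probes on one side and beside Dicer1 at 0.09 and Clmn at 2.21 on the other.

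The marker genes show which cells the comparison holds. Of 13 cartilage genes, 11 were higher and none lower in the positive cells (limma, also 0 lower at an unadjusted p of 0.05), with a median difference of 3.0. Sox9, which defined the sort, is among the 11. Over all 13197 genes, each taken at its brightest kept probe, 8.52% were higher and 18.2% lower (26.7% called in all) and the median was −0.18. Col2a1, the main cartilage collagen, was 36.5-fold higher and Bmpr1b, the BMP receptor of digit condensations, 8.95-fold (adjusted p of 0.000408 and 0.00075). Summed over the list, the linear signal relative to the 75th percentile was 316 to 347 on the positive arrays and 67.4 to 92.3 on the negative arrays. Most of the negative sums came from the Sox5 probe, which was not called (adjusted p = 0.47, limma). In log2 units Sox5 was at 6.27, 6.92 and 5.95 on the positive arrays and 6.25, 6.18 and 5.75 on the negative arrays. The autopod label also held, since 8 of 9 autopod genes were kept and each of the 8 was clearly detected on all 6 arrays. Of these, 2 were higher and 5 lower in the positive cells. Hoxd13, a Hox gene of the digits, fell 3.06-fold and Msx1, a homeobox factor of undifferentiated mesenchyme, 23.7-fold, while Sall1, a zinc finger factor, was 2.86-fold higher (adjusted p of 0.00606, 0.0029 and 0.00981).

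Markers of other cell types moved in several directions, to be read beside 8.52% higher and 18.2% lower over all genes. Among 8 muscle precursor genes 5 were kept and 3 were lower, with summed levels of 0.156 to 0.324 on positive and 0.654 to 1.55 on negative arrays, and Pax7, Myf5 and Msc were above background on none. Neural crest and Schwann genes summed to 1.78 to 2.10 and 13.97 to 16.23, with Foxd3 on no array. In that list Ngfr, a neurotrophin receptor, was 29.6-fold lower (adjusted p = 0.00018). Sox10, a neural crest factor, was higher (adjusted p = 0.0405), a call lost when positive replicates 1, 2 or 3 or negative replicates 1 or 3 were left out (adjusted p of 0.0597 to 0.13). Of 8 ectoderm genes 6 were kept and 2 were higher, Krt8 by 2.33-fold and Krt18 by 6.04-fold, with Cdh1 on no array. Their summed levels were 22.4 to 36.8 on positive and 9.26 to 11.7 on negative arrays. Most of each sum came from Trp63, at 3.73 to 4.76 and 2.90 to 3.24 in log2 units, which was not called over all arrays. Of 2 kept endothelial genes 0 passed in limma, also at an unadjusted p of 0.05, with Tek, Tie1 and Emcn on no array. The endothelial sums were 2.94 to 8.06 against 1.97 to 5.08. Most of each came from Kdr, at 1.40 to 2.96 and 0.83 to 2.19 in log2 units. Of 5 kept blood genes 1, Pf4, was lower, with sums of 1.23 to 5.18 against 2.39 to 46.5. The sum of 46.5 was that of negative replicate 2, where the globin genes Hba-a1, Hba-x, Hbb-bh1 and Hbb-y were all highest. Hbb-y was at 4.72 in log2 units there. It gave 0.90 and −0.87 on negative replicates 1 and 3 and −0.88 to 1.67 on the positive arrays. Without positive replicate 1, 4 muscle genes were lower, Myod1, a myogenic factor, being added (−2.24 with adjusted p = 0.055 over all arrays, −2.84 with 0.0162 without it). In the ectoderm list 3 were then higher, with Trp63, an epidermal factor, added (1.01 with adjusted p = 0.059, and 0.68 with 0.0311). The neural crest list then had none higher and 1 lower. The cartilage, autopod, endothelial and blood counts were the same without it. The part of these cells in the Gsc difference was not tested.

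The genes nearest to Gsc in profile were found by centring each gene's 6 values on its own mean and taking the Euclidean distance to Gsc over 13196 other genes. Foxc1, a forkhead factor of skeletal and somitic mesenchyme, was nearest at a distance of 0.97, with a group difference of 7.47 in log2 units. Cxcl10, a chemokine, came next at 1.59 and was at least 33.9-fold higher in the positive cells. They were followed by Col9a2, a chain of cartilage collagen IX, at 1.69, and by Rflna, a filamin-binding protein, at 1.80.

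Next were Cxcl12, the chemokine that attracts Cxcr4-bearing cells, at 1.85, Fibin, a secreted protein known from fin buds, at 2.07, and Mgll, monoacylglycerol lipase, at 2.08. Ebf2, a helix-loop-helix factor, lay at 2.09, Sema3d, a secreted semaphorin, at 2.25 and Igfbp5, which binds insulin-like growth factors, at 2.38. All 10 had non-overlapping groups, as follows from a measure that rewards a large difference. Over the 5 arrays without positive replicate 1, 9 of these 10 were again among the 10 nearest, and Rgcc stood in place of Igfbp5. Gm10000 lay at a distance of 4.24 from Gsc, and 35 genes were nearer.

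**Figure D4:**
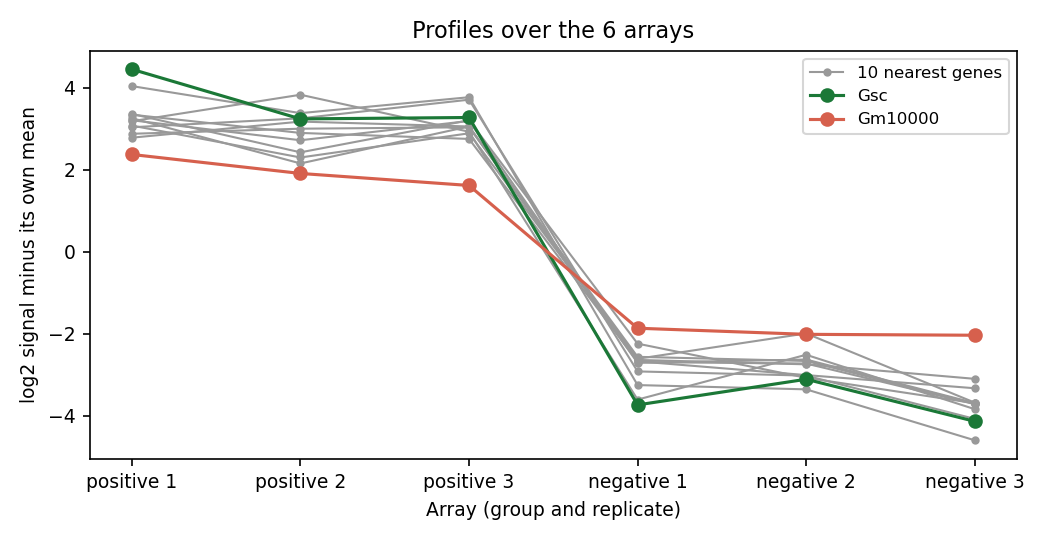
Centred log2 signal of Gsc (green), Gm10000 (red) and the 10 nearest genes (grey) on each of the 6 arrays; lines join the values of one gene and imply no order of the arrays. Gsc has its highest value on positive replicate 1, and all 12 profiles drop between the groups.

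Of the ligands, receptors and effectors of Nodal and activin signalling, which acts upstream of Gsc in the gastrula, 17 of 21 were measured. In the positive cells 2 were higher, 1 was lower and 14 were not called, beside 8.52% higher and 18.2% lower over all genes. The list median was −0.13 against −0.18 over all genes. Inhba, which encodes the activin A subunit, was at −2.11, −0.79 and 0.46 on the positive arrays and between −4.42 and −4.12 on the negative arrays. It rose by 3.50 ± 0.61, 11.3-fold (adjusted p = 0.0134), with no overlap. It was no longer called when negative replicate 1 (adjusted p = 0.0515) or 3 (0.0588) was left out, and in the authors' values (0.051). Inhbb, the activin B subunit, was higher by 1.13 ± 0.19 (adjusted p = 0.0123), lost without positive replicate 3 (0.0503) or negative replicate 3 (0.0561), after quantile normalization (0.125) and in the authors' values (0.185).

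Gdf1, a Nodal-related ligand, was lower by a difference of −0.69 ± 0.14 (adjusted p = 0.0189). That call was lost when positive replicates 2 or 3 or negative replicates 1 or 3 were left out (adjusted p of 0.0616 to 0.0765), after quantile normalization (0.0768) and in the authors' values (0.0544). Nodal itself was not kept, and the antagonist Lefty1 and the receptor Acvr1c were above background on no array. The signal-transducing Smad2, Smad3 and Smad4 gave differences of −0.25, −0.29 and −0.13 and were not called. Fst, follistatin, which binds activin, was at −1.50 (adjusted p = 0.0674) and was called lower after quantile normalization (0.046), with the normexp model (0.0469), in the authors' values (0.0449) and without negative replicate 3 (0.0153). Smad7, an inhibitory Smad, was at −0.69 (adjusted p = 0.596, or 0.0384 in the slide-blocked fit). With positive replicate 1 left out, 3 members were higher and 1 was lower, the added one being Inha, the inhibin alpha subunit, at 1.02 (adjusted p = 0.0116).

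Genes of the endothelin and Dlx pathway, which places Gsc in the lower jaw, gave calls in both directions. Of 18 members 13 were measured, and 1 was higher and 5 were lower in the positive cells, beside 8.52% higher and 18.2% lower over all genes. The list median was −0.40 against −0.18 over all genes. Ednra, the endothelin receptor of neural crest mesenchyme, was at 1.92, 1.48 and 1.48 on the positive arrays and 3.22, 3.0 and 3.04 on the negative arrays. It fell by 1.46 ± 0.17 on the log2 scale, 2.75-fold (adjusted p = 0.00434). Dlx2 was not well above background on any positive array and was at least 5.97-fold lower (adjusted p = 0.00336), and Dlx5 was 5.40-fold lower (adjusted p = 0.00924). Both encode distal-less homeodomain factors.

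The ligand gene Edn1 and Dlx1, Dlx4 and Barx1 were above background on no array. Hand1, a helix-loop-helix factor, was at least 1.47-fold lower (adjusted p = 0.0247), a call lost when positive replicates 2 or 3 or any negative replicate was left out (adjusted p of 0.0565 to 0.0913). Gna11, a G protein alpha subunit, was lower by −0.47 ± 0.12 (adjusted p = 0.0374). Its call was lost when any array but positive replicate 1 was left out (adjusted p of 0.0841 to 0.137), in the slide-blocked fit (0.0545) and after quantile normalization (0.186). Over the 5 arrays without positive replicate 1, 2 members were higher and 7 lower, the added ones being Ece1, which activates endothelins, at 0.70, Hand2, a relative of Hand1, at −0.61, and Eya1, a transcriptional coactivator, at −0.64 (adjusted p of 0.016, 0.0436 and 0.0258).

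Among the partners of Gsc, all 8 Groucho and histone deacetylase genes of the list were measured. In the positive cells 1 was higher and 2 were lower, beside 8.52% higher and 18.2% lower over all genes. Tle2, a Groucho corepressor, was at 0.23, 0.58 and 1.20 on the positive arrays and −1.10 to −1.29 on the negative arrays, a rise of 1.89 ± 0.26, or 3.72-fold (adjusted p = 0.00671). Its relatives Tle4 and Tle3 were lower by −1.06 ± 0.16 and −0.77 ± 0.14 (adjusted p of 0.0092 and 0.0137). Leaving out positive replicate 3 ended the Tle3 call (adjusted p = 0.0546), as did negative replicate 1 (0.0664) or 3 (0.0587), and it was also lost after quantile normalization (0.121). The remaining 5, Hdac1 at −0.33 among them, were not called, and the list median was −0.17. When positive replicate 1 was left out, 1 was higher and 3 were lower, with Tle1, another Groucho gene, added at −0.57 (adjusted p = 0.0293).

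Of 31 other paired-type homeobox genes 10 were measured, 11 were above background on no array, and Gsc2, the closest relative of Gsc, was not kept. In the positive cells 2 were higher, Shox2 and Rax, and 4 were lower, Prrx2, Alx1 and Pax3 among them, with a list median of −1.05. Over all genes 8.52% were higher and 18.2% lower, with a median of −0.18. Prrx2, a factor of limb mesenchyme, was at 4.67, 4.64 and 4.56 on the positive arrays and 6.48, 6.65 and 6.52 on the negative arrays, and fell by 1.93 ± 0.12 on the log2 scale (adjusted p = 0.000728). Its paralog Prrx1 differed by −0.06 ± 0.39 with overlapping groups (adjusted p = 0.926). Pax3, a muscle precursor factor, was at least 4.19-fold lower (adjusted p = 0.00578).

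Shox2, a factor of the proximal limb skeleton, rose by 2.72 ± 0.59, or 6.61-fold (adjusted p = 0.0243). Its difference was 4.39, 2.74 and 1.05 within the slides, and leaving out positive replicate 2 (adjusted p = 0.0533) or 3 (0.0573) or negative replicate 2 (0.0665) or 3 (0.0943) ended the call, as did quantile normalization (0.0552). Rax, a homeobox gene known from the eye field, was at −1.42, −1.37 and −1.07 against −3.44, −2.83 and −4.20, a rise of 2.21 ± 0.35 (adjusted p = 0.00985).

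Alx1, a gene of craniofacial mesenchyme, was at least 1.86-fold lower (adjusted p = 0.0288), a call lost without negative replicate 1, 2 or 3 (adjusted p of 0.0808 to 0.0961). Pitx1 was not called over all arrays (difference −0.74 ± 2.24, adjusted p = 0.843), whereas without positive replicate 1 it was lower by −3.49 ± 0.41 (adjusted p = 0.00605). Pitx3, a relative of Pitx1, was at −1.36 (adjusted p = 0.119) and was called lower in the slide-blocked fit (0.00894), after quantile normalization (0.0298), with the normexp model (0.0448) and in the authors' values (0.0423). With positive replicate 1 left out, the list had 2 members higher and 5 lower.

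Genes that share the organizer with Gsc gave both directions. Of 15, 9 were measured, with 4 higher, 2 lower and a median of 0.73. The shares over all genes were 8.52% higher and 18.2% lower, and the median was −0.18. Eomes, a T-box factor of gastrulation, was at 1.07, 1.78 and 2.20 on the positive arrays and at −4.34, −5.90 and −6.84 on the negative arrays, where 1 of 3 was well above background. Its difference of 7.38 ± 0.65 (adjusted p = 0.00187) rests, like that of Gsc, on negative values mostly at background, and was 4.11 with the normexp model and 3.99 in the authors' values. Lhx1, the LIM homeobox factor of the organizer, rose by 2.46 ± 0.19, or 5.52-fold (adjusted p = 0.00126). Dkk1, a secreted Wnt inhibitor, was 11.4-fold lower (adjusted p = 0.0049), but was well above background on only 2 of 3 positive arrays. Without positive replicate 1, where it was not, its difference was −3.04 against −3.51 over all arrays. T (Brachyury), a T-box factor of the primitive streak, was at least 2.72-fold lower (adjusted p = 0.00732).

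Frzb, a secreted Wnt-binding protein also known from cartilage, was higher by 1.36 ± 0.31 (adjusted p = 0.0294), and Shisa2, an inhibitor of Wnt and FGF receptor maturation, by 0.96 ± 0.18 (adjusted p = 0.016). The Frzb call was lost without positive replicates 2 or 3 or negative replicate 1 (adjusted p of 0.0778 to 0.0868), and that of Shisa2 without positive replicates 2 or 3 or negative replicates 1 or 3 (0.0515 to 0.0686). The BMP antagonist Chrd differed by −0.04 ± 0.44 with overlapping groups. Nog, another BMP antagonist, gave 0.73 ± 0.49 (adjusted p = 0.333, or 0.0464 in the slide-blocked fit). These counts were the same without positive replicate 1.

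Gsc was also set beside genes of the more proximal limb, of which 10 of 13 were measured. In the positive cells 3 were higher and none was lower in limma, adjusted or at an unadjusted p of 0.05, with a median of 0.49. At the adjusted threshold 8.52% of all genes were higher and 18.2% lower, with a median of −0.18. Hoxd9 was at 1.88, 2.24 and 2.22 on the positive arrays and 0.88, 0.57 and 0.71 on the negative arrays, a rise of 1.40 ± 0.16 (adjusted p = 0.0042). Hoxa11, a Hox gene of the forearm segment, rose by 1.61 ± 0.28 (adjusted p = 0.013), a call lost without negative replicate 3 (0.051). Shox2 was the third. Meis1, a marker of the upper limb, gave 0.70 ± 1.18 with overlapping groups (adjusted p = 0.716), and the homeobox genes Irx3 and Irx5 were above background on no array. The counts were again 3 and none without positive replicate 1.

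**Figure D5:**
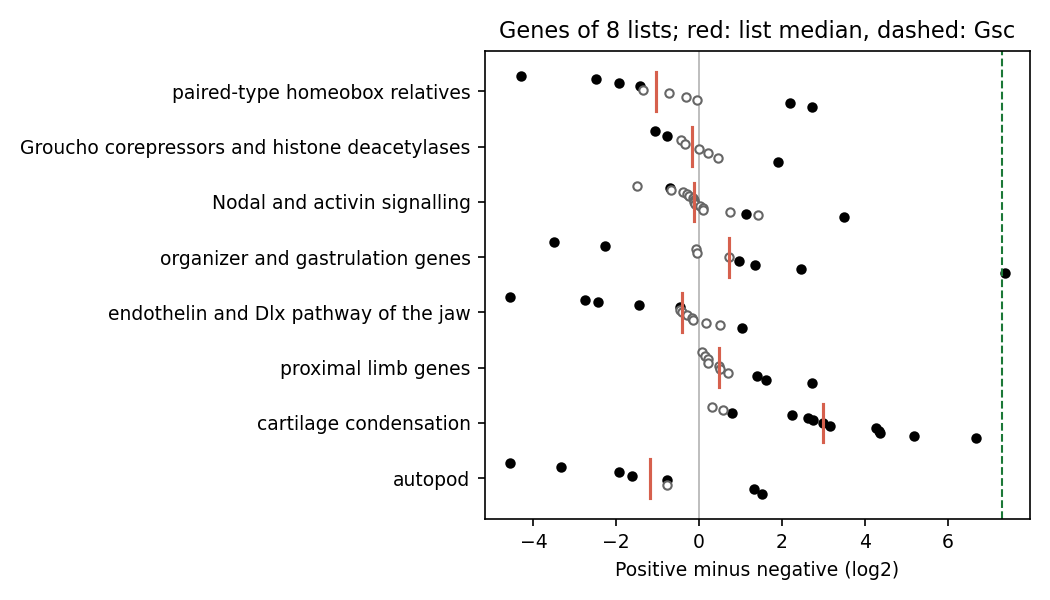
Difference between positive and negative arrays in log2 units for the measured genes of 8 lists, each point a gene at its brightest kept probe, filled where the adjusted p was under 0.05, with the list median as a red bar and the Gsc difference of 7.32 as a dashed line. The cartilage genes lie to the right with a median of 3.0, and Eomes, at 7.38 with 1 of 3 negative arrays well above background, lies at the Gsc line.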

How the data were processed

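RNA of 3 Sox9-EGFP positive and 3 negative samples was measured on 1-colour (Cy3) Agilent arrays. The RNA input is 100 ng in the extraction and 75 ng in the labelling protocol, per the labels. Per the file headers, the authors made each array's intensity values with Feature Extraction 10.7.3.1, with coordinates of mm9. The deposited series matrix holds the authors' log2 values, whose columns share a median of 6.41. They correlated at 0.996 to 0.998 with the log2 mean signal. How their background was corrected is not known here.

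Processed intensities were taken as log2 minus each array's 75th percentile over 59305 non-control spots. After averaging of replicate spots and removal of 3671 controls there were 55681 probes. Members lay from 105600000 to 105820000 of chromosome 12. Of all probes, 26490 were well above background on all 3 arrays of a group, of which 17 with outlier spots were dropped. Names came from RefSeq accessions (26300 probes), symbols (2044) or older symbols (355), and 26982 probes had none. Tests used limma 3.58.1 under R 4.3.3 (Benjamini-Hochberg over 26473 probes, threshold 0.05), checked on simulated data. The number of arrays limits the precision. Both arrays of a slide, 1 per group on each of 3 slides, deviated together (correlations 0.56, 0.41 and 0.24). The members, lists and tests were chosen with earlier results of these data known. The hindlimb genes and the head-to-head pairs were chosen after their values were seen.

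Genes were named by a rule: every probe of the window, in the flanks the 3 nearest measured genes per side and every called probe, in each list up to 5 called members per direction, the 10 genes nearest to Gsc in profile, and Sox9. A few list members are counted but not reported here by name. Other named genes, such as list members not called, markers of other cell types and Pitx1, were chosen after their values were seen. Alternatives were quantile normalization, a normexp background model (offset 50) with quantile normalization, median centring, the authors' values, no or a stricter background filter, slide and replicate blocks, a threshold of 0.01 and leaving out each array.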

Additional observations from a re-analysis of the deposited data

How the results depend on the processing

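The Gsc difference of 7.32 moved to 3.49 with the normexp model and to 3.39 in the authors' values, and that of Gm10000 from 3.94 to 3.49 with quantile normalization, 0.82 with the normexp model and 0.82 in the authors' values. Leaving out 1 array gave 6.92 to 7.59 for Gsc and 3.74 to 4.11 for Gm10000. A filter on all 6 arrays leaves no value for either. Over all probes 5731 were called, against 3803 with quantile normalization, 1350 with no filter, 1718 at a threshold of 0.01, and 2027 to 6449 with 1 array left out (2027 without negative replicate 1, 2036 without negative replicate 3, 2363 without positive replicate 3, 3496 without negative replicate 2, 3599 without positive replicate 2). Flank calls numbered 3, against 1 with no filter, 1 at 0.01, 5 with slide as a block and 1 to 3 with 1 array left out. The pathway lists had 26 calls, against 11 with no filter and 16 to 32 with 1 array left out. The replicate numbers did not pair the samples (correlations −0.27, −0.46 and 0.29), and with the replicate block 1370 probes, 1 flank probe and 17 list genes were called. For the list and flank genes tested singly, 1225 values under the alternatives kept their side of the threshold, 120 lost it, 17 gained it and none of the called ones changed sign. The cause of these shifts was not tested. Signals of Gm10000 near background limit its fold.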

Other observations

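Gsc and Gm10000 start close together and point away from each other, and the same arrangement was counted elsewhere in the RefSeq table. There were 637 pairs of genes on opposite strands with starts at most 1000 bases apart and a kept probe for each. In 46 pairs (7.22%) both genes were called, 39 in the same direction (6.12%) and 7 in opposite directions. Of the genes in these pairs 24.3% were called. The square of that share is 5.88%, and the squares of the shares higher and lower add to 4.45%. The differences from 7.22% and 6.12% were not tested. Both genes were higher in the positive cells in 2 pairs, in neither of which both were at least 2-fold higher. Of the 34 pairs of a coding gene with a long non-coding RNA, none had both genes called at an adjusted p of 0.05 in limma. At an unadjusted p of 0.05, 2 had both. Of the genes in these 34 pairs 13.2% were called at the adjusted threshold, and the square of that share is 1.75%. With so small a share in 34 pairs, nothing is read from the absence of such a pair. Gsc and Gm10000 are not among these pairs, since the array names Gm10000 only by its description.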
